A study of Homo sapiens with 6 samples.

Results

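Wild-type-private regions are stretches of chromatin where ERα was found with the wild-type receptor, both without and with estradiol (E2), and with neither mutant. Peaks of 6 lists on chromosomes 1 to 22 were merged where they overlapped by 1 bp or more. Members were chosen by peak presence alone: a merged region qualified when it held a peak in both wild-type lists and in none of the 4 mutant lists. This gave 3687 members of 169433 merged regions, or 3.73% of the 98786 regions found in both wild-type lists. ERα binding had been mapped with an ERα antibody by ChIP-seq, which sequences the DNA fragments recovered with a protein, in cells of MDA-MB-453, an established human breast cancer cell line with an androgen receptor-positive, apocrine-like character that is usually classed as ERα-negative, in which the receptor was expressed from a doxycycline-inducible construct. All cells received 2 µg/mL doxycycline for 2 days in medium with 10% fetal bovine serum. For each of wild-type, Y537S and K303R ERα, 1 library was grown without and 1 with 1 nM E2. The labels do not state that the serum was hormone-depleted, nor whether each receptor line was derived from a single clone. Each group is 1 library, so no value below has a replicate check, and every interval is a 95% interval that covers counting error only. Peak names of the Y537S lists carry a date-like tag that differs from the tag shared by the wild-type and K303R lists, so for Y537S receptor and tag cannot be told apart. The lists held 102848 to 121641 peaks each.

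ERα is a ligand-activated transcription factor. It binds estrogen response elements, paired inverted copies of a short half-site, or is brought to DNA by other factors, and most of its sites in breast cells are distal enhancers opened by pioneer factors such as FOXA1. Y537S lies in the ligand-binding domain and holds the receptor in an active shape without hormone. K303R lies in the hinge between the DNA-binding and ligand-binding domains.

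Few members sat at a gene start, and the strongest of those are shown here because they are the members for which the sequence under the summit could be read. In 38 of 3687 members (1.03%, Wilson interval 0.752 to 1.41) the summit, the base with the most overlapping fragments, fell in the window from 250 bases before to 50 after a RefSeq gene start (GRCh38.p14). In regions of both wild-type lists that were also in a mutant list and had 11 to 17 mean fragments, the middle range of the members, the share was 4.41% (710 of 16114, 4.10 to 4.73). It was 2.88% in regions of all 6 lists, 1.34% in regions private to Y537S and 2.08% in regions private to K303R. The windows below are written 5′ to 3′ on the gene's strand, with matches to 6 motifs in capitals. A member need not fill its window, so a match can lie outside the member. They belong to LINC03095 (chr7:26551589-26551888, plus strand), SP1 (chr12:53380394-53380693, plus), SPRR3 (chr1:153001499-153001798, plus), LINC02527 (chr6:111909348-111909647, minus) and LOC105377369 (chr4:111847315-111847614, plus).
LINC03095: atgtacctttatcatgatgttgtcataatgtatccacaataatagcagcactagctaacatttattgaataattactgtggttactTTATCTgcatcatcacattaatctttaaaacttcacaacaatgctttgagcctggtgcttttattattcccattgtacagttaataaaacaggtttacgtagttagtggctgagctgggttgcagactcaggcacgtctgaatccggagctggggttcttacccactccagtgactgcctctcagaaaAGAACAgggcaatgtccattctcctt
SP1: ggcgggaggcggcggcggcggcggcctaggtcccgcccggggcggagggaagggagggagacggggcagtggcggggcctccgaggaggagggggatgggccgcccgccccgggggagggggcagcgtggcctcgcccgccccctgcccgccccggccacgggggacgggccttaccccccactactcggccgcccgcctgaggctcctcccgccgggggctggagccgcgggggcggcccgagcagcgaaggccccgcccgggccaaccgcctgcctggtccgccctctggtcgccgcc
SPRR3: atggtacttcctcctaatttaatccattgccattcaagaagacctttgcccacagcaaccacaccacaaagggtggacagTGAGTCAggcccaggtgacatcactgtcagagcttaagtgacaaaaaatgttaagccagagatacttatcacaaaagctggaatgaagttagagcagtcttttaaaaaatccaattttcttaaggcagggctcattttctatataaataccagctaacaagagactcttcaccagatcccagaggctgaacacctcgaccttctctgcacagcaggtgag
LINC02527: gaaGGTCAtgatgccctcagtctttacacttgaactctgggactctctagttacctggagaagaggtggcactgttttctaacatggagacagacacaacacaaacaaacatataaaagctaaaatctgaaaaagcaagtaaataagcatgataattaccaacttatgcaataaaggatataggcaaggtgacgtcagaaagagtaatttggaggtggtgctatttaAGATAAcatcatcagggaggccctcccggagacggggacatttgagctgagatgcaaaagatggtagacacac
LOC105377369: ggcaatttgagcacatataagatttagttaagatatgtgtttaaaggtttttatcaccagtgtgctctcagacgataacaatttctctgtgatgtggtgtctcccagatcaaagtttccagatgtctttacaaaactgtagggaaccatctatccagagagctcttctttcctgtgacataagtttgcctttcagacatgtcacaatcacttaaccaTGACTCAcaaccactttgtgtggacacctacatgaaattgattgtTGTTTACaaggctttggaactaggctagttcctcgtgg

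LINC03095, a long non-coding RNA gene, had the strongest member at a gene start outside chromosome 8, whose sequences are not shown. At its summit 22 fragments overlapped in the wild-type library grown without E2 and 27 in the one with E2. The summit lay 156 bp before the start. This member covered the first 237 bases of the window. It held the GATA match at bases 87 to 92 but not the androgen response half-site match at bases 275 to 280. SP1 encodes a ubiquitous zinc-finger activator of GC-rich promoters, and its window is 83.3% G or C. Its member had 20 and 19 fragments, and none of the 6 motifs was in the window. SPRR3, a small proline-rich protein of the cornified envelope of squamous epithelium, had 14 and 13 fragments and an AP-1 match at bases 81 to 87 of its window. LINC02527 had 13 and 13 fragments, with an estrogen response element half-site at bases 4 to 8 and a GATA match at bases 228 to 233. Its member covered the first 193 bases of the window, so the GATA match lay outside the member. LOC105377369, another non-coding gene, had 13 and 12 fragments, with AP-1 (bases 218 to 224) and forkhead (bases 263 to 269) matches. The start of KDELR3, an endoplasmic reticulum retention receptor, held a further member with 14 and 12 fragments and no match. At each of these gene starts the counts of both wild-type libraries were close, and no interval of the E2 ratio left out 1. These members were chosen by the lower of both wild-type −log10 p values, which favours like counts.

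The 6 motifs in the gene-start windows that touched a member had shares between 0 and 35.4%. They were searched on both strands: the estrogen response element (GGTCA, any 3 bases, TGACC), its half-site GGTCA (2 of which, in opposite directions, make up the full element), the forkhead site TGTTTAC, the AP-1 site TGANTCA, the androgen response half-site AGAACA and the GATA site AGATAA. The full element was in 0 of 79 windows touching a member and in 0.0593% of all 33725 windows, a share too low for 79 windows to be informative. The half-site was in 35.4% of member windows against 37.4% of all, and forkhead in 5.06% against 3.45%. AP-1 was in 12 of 79 member windows (15.2%) against 7.67% of all windows and 6.51% of the 6806 windows touching a region of all 6 lists. In windows touching a region of 11 to 17 fragments it was in 4.73%. The androgen half-site was in 7.59% of member windows, 14.8% of all, 8.48% of those touching a region of all 6 lists and 7.93% of those touching a region of 11 to 17 fragments. GATA was in 11.4%, 10.4%, 5.07% and 4.91%. These are letter matches in gene-start windows only, and a match need not lie inside the member that the window touches. The 79 windows touched only 67 members, so they are not independent. The 6 motifs were added after seeing the data, and the AP-1 difference was not tested. The sequence under the other members was not analysed here.

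Members were weak regions. Summit fragments are the whole number of fragments at a summit, recovered from the fold and p-value of each deposited peak. Members had a median of 13 fragments without E2 (middle range 11 to 18, lowest 6, highest 93) and 13 with E2 (11 to 17, lowest 6, highest 84), while regions of all 6 lists had medians of 54 and 53. The mutant-private sets were as weak, with a median of 13 mean fragments in their own libraries for Y537S and 13 for K303R, as for the members. The median fold over local background in the authors' lists was 5.43 without and 5.57 with E2, and the median −log10 p was 9.21 and 9.42. The strongest member peak ranked 33957th of 121641 peaks by −log10 p without E2 and 36188th of 117710 with E2. Only 151 and 107 member peaks were in the stronger part of their list, above its median. A peak is listed by its strength, so strength is part of what the rule used.

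Wild-type signal rose with the number of mutant lists that also held a region. The median of the mean wild-type fragments was 13 for the members, 14.5 for 5299 regions also in 1 mutant list, 17 for 11382 in 2, 20 for 12617 in 3 and 53.5 for 65801 in all 4. The members thus form the weak end of a gradual series. Of the regions in exactly 2 of the 6 lists, 3687 of 20908 (17.6%) were members, 3962 were private to Y537S and 2544 to K303R, and the 12 pairings of different receptors held 369 to 1552 each. The private sets were of like size relative to their lists, at 3.73% of regions in both wild-type lists, 4.24% for Y537S and 3.06% for K303R.

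**Figure D1:**
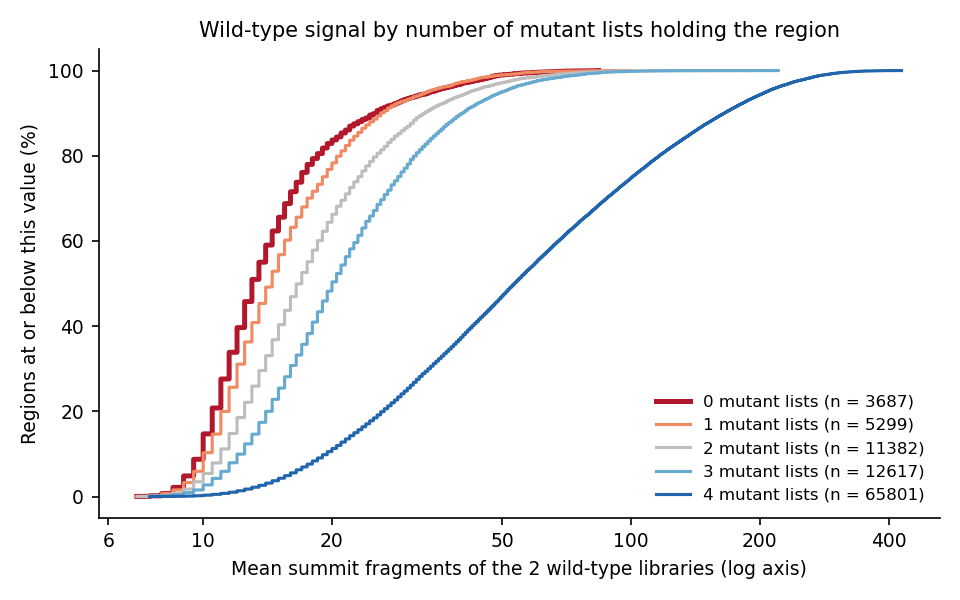
Cumulative share of regions (y axis, %) against the mean summit fragments of both wild-type libraries (x axis, log scale), for regions of both wild-type lists split by how many mutant lists also held them. The curve of the 3687 members (0 mutant lists) lies farthest left, with a median of 13 fragments against 53.5 for regions in all 4 mutant lists.

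Absence from a mutant list is a statement about a peak list, not about zero binding. The lowest summit count listed was 5 fragments in Y537S without E2 and 6 in the other mutant lists. Mutant libraries held fewer fragments at shared regions than wild type at the same treatment in 3 of 4 cases, with median ratios of 0.909 (Y537S without E2), 1.03 (Y537S with E2), 0.750 (K303R without E2) and 0.892 (K303R with E2). If members had followed these ratios, the median expected count would have been 11.8, 13.4, 9.75 and 11.6, where 5, 6, 6 and 6 fragments reach the lowest listed −log10 p at the background scaled from wild type. The expected count reached this level at 97.6% to 100.0% of members in each list, and 2 times this level at 48.3%, 48.4%, 16.5% and 25.8%. In 1334 members (36.2%) the expected count was at least 1.5 times that level in all 4 mutant lists, and in 314 (8.52%) at least 2 times. A peak can also be dropped for being too narrow, so these levels are the lowest at which a region could be listed. In the other members the expected count was under 1.5 times that level in at least 1 mutant list.

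Regions lay close to the edge of the rule on both sides. Among members, the lowest −log10 p in either wild-type list belonged to a region 897488 bp from KCNT2 (6 fragments without and 8 with E2), the region 35350 bp from GRHL3 described with E2 below (26 and 9), and one 1033 bp from EPSTI1 (10 and 6). Just outside the rule, chosen by another measure, were regions in both wild-type lists with a weak peak in a single mutant list. The weakest such mutant peaks were at ADCY7 (11 and 9 wild-type fragments, 5 in Y537S without E2), NDUFAF6 (11 and 10, and 9 in K303R with E2), and 1615759 bp from TMEFF2 (13 and 10, and 6 in Y537S with E2).

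Member summits lay about as close together in both wild-type libraries as those of regions of like signal. Peaks were merged only where they overlapped, which limits this distance. The summits were a median of 45 bp apart (middle range 21 to 80) and within 50 bp in 55.4% of members. In the regions of 11 to 17 mean fragments that a mutant list also held, the median was 49 bp and the share 50.7%. It was 24 bp and 77.6% in regions of all 6 lists, 40 bp for the Y537S summits of Y537S-private regions and 54 bp for the K303R summits of K303R-private ones. The median width was 346 bp for members, 334 bp for Y537S-private, 383 bp for K303R-private and 474 bp for regions of 11 to 17 fragments, and 634 bp in regions of all 6 lists. Width also grows with the number of peaks merged.

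The 12 strongest members, ranked by the lower of their wild-type −log10 p values, were mostly outside protein-coding genes. Of these, 1 lay inside a protein-coding gene, where 41.7% of all members did, and 11 lay outside. Of the 12, 7 were more than 100 kb from a protein-coding gene, and 5 summits lay in the span of a long non-coding RNA gene. The shares of all members were not computed for these traits, so neither count sets the 12 apart. The first was 2710 bp from CCN3, a matricellular protein gene (chromosome 8, 119413562 to 119413923), with 73 fragments without and 67 with E2. The second lay in LINC01435, 775879 bp from the sorting receptor gene SORCS1 (chromosome 10, 107956778 to 107957240), with 37 and 34 fragments and the highest fold of all members without E2, 15.3. A region 114316 bp from DCLK2, a doublecortin-like kinase gene (chromosome 4, 149963816 to 149964383), had 32 and 33 fragments. All of these had nearly the same count without and with E2, which the ranking by the lower −log10 p favours.

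A region 62251 bp from PTPRK, a receptor tyrosine phosphatase gene (chromosome 6, 128582640 to 128583085), had 36 and 38 fragments, and its nearest mutant peak was 671 bp away, the shortest distance among the 12. The only member of the 12 inside a protein-coding gene was in CACNA1C, the pore-forming subunit of an L-type calcium channel (chromosome 12, 2586321 to 2586730), with 42 and 45 fragments. A region in the non-coding MMADHC-DT, 83583 bp from the cobalamin-processing gene MMADHC (chromosome 2, 149671154 to 149671552), had 26 and 26. The others had 27 and 31 fragments near NAALADL2, 26 and 25 near ATXN7L3B, 29 and 27 near OLFM4, 32 and 38 near TMEM132B, 50 and 53 near CLINT1, and 93 and 72 near GALC. The E2 ratios of the 12 ran from 0.774 to 1.19, and every interval included 1. Ranking by the lower of both −log10 p values favours regions of like strength in both libraries, so this closeness is partly set by the choice. The summits of the 12 were 1 to 67 bp apart between both libraries.

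**Figure D2:**
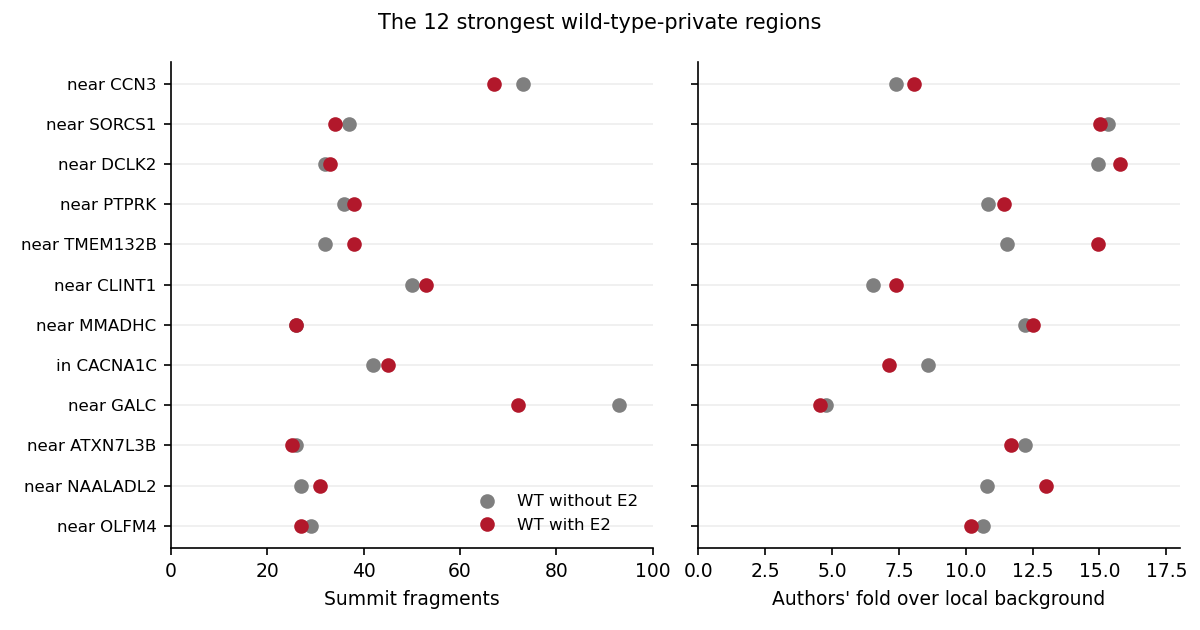
Summit fragments (left) and the authors' fold over local background (right) of the 12 strongest members in the wild-type libraries without E2 (grey) and with E2 (red), labelled by the nearest protein-coding gene. The points of a region lie close together, which the ranking by the lower −log10 p favours. The regions near CCN3 (73 and 67) and GALC (93 and 72) have the most fragments but not the highest fold.

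Members with many fragments were mainly sites on a raised background next to a shared region. The local background, the number of fragments expected at the summit, was at least 5 in both wild-type libraries at 310 members (8.41%), a limit chosen after seeing the values. These held a median of 36 fragments but a median fold of only 3.67, and lay a median of 1437.5 bp from the nearest region of all 6 lists, against 14003 bp for the other members. Of the 251 members with a mean of 30 or more fragments, 229 were of this kind, among them those near CCN3, CLINT1 and GALC. The share among other regions of 30 or more fragments was not computed. A raised background was not particular to members. In regions of all 6 lists its middle range was 1.88 to 6.85 without and 1.74 to 6.64 with E2. The region near GALC stood on a background of 18.7 fragments without and 15.03 with E2. The remaining members had a median of 13 fragments and at most 43.5.

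By the rule no member overlapped a mutant peak, so separation from mutant peaks was fixed in advance. The distances to mutant peaks were not computed for other sets of regions. The nearest peak of any mutant list was a median of 4628 bp away (middle range 1510.5 to 11179), more than 10 kb away for 1035 members (28.1%), and within 500 bp for 331 (8.98%). The nearest merged region of any kind was a median of 3527 bp away, against 4695 bp for the regions of 11 to 17 fragments, 4673 bp for Y537S-private and 3186.5 bp for K303R-private regions. By this measure members were closer to other regions than the regions of 11 to 17 fragments were.

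The share of members in or beside genes was below that of regions in the members' middle range of signal, 11 to 17 fragments, that a mutant list also held. A summit fell inside the span of a protein-coding or lncRNA gene in 2092 members (56.7%, Wilson interval 55.1 to 58.3), against 61.3% (60.6 to 62.1) of the regions of 11 to 17 fragments, 64.4% in all 6 lists, 62.0% of Y537S-private and 64.3% of K303R-private regions. A summit was within 1 kb of either end of such a gene in 197 members (5.34%, 4.66 to 6.12), against 14.5% (13.99 to 15.1) of the regions of 11 to 17 fragments and 12.9% in all 6 lists. It was 9.39% (8.52 to 10.3) in Y537S-private and 8.84% (7.80 to 10.01) in K303R-private regions. Regions are not replicates and neighbours are not independent, so these differences were not tested.

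Split by wild-type signal, the share inside gene spans was 65.8% of members and 65.5% of other regions at 6 to under 9 mean fragments, 55.3% and 61.4% at 9 to under 12, and 55.8% and 61.3% at 12 to under 15. The share at gene ends was lower in members in each of the 6 bins. At 6 to under 9 fragments it was 7.59% of 79 members against 24.1% of 249 other regions. At 9 to under 12 mean fragments it was 6.59% of 1169 members against 17.8% of 4451 other regions. At 12 to under 15 fragments it was 4.67% of 1050 against 14.3% of 7603, and at 15 to under 20 it was 4.76% of 757 against 13.5% of 12109. At 20 to under 30 fragments it was 4.99% of 381 against 11.9% of 16356, and at 30 or more it was 3.98% of 251 against 10.1% of 54331. With ends of protein-coding genes alone, the shares at 12 to under 15 fragments were 2.67% and 11.4%. The share was 5.34% of the members and 7.76%, 7.18%, 10.4% and 12.9% of regions in 1, 2, 3 and 4 mutant lists, so it was lowest in the members but did not rise at every step.

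**Figure D3:**
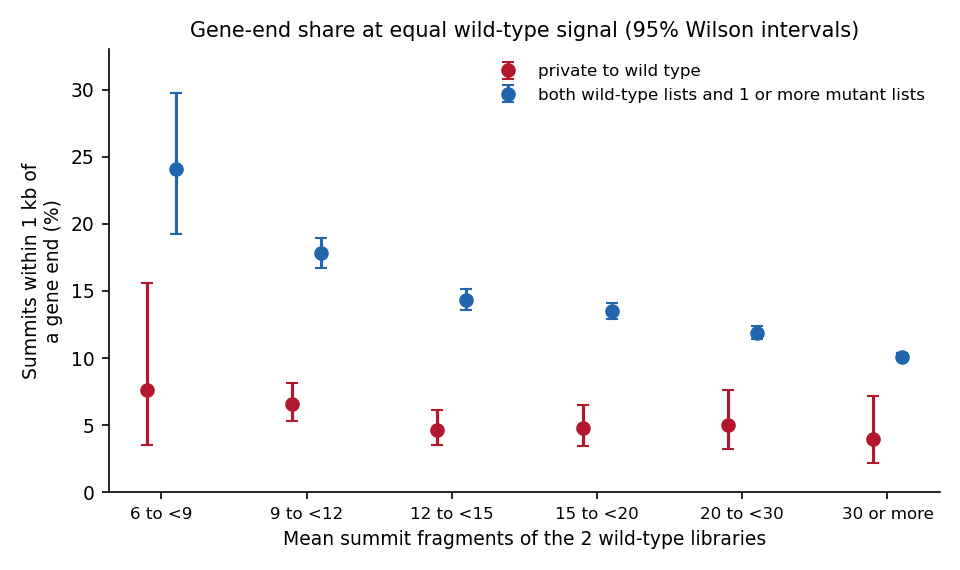
Share of summits within 1 kb of a gene end (y axis, %) in bins of mean wild-type summit fragments (x axis), for members (red) and for other regions of both wild-type lists (blue), with Wilson intervals. In every bin the members are lower, for example 4.67% against 14.3% at 12 to under 15 fragments.

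Members lay in gene-poor surroundings, as did wild-type regions found in only 1 or 2 mutant lists. The median number of protein-coding genes with their midpoint within 500 kb of the summit was 4. It was 6 for the regions of 11 to 17 fragments, 6 for both mutant-private sets and 7 for regions of all 6 lists. Among regions of both wild-type lists it was also 4 in those of 1 and of 2 mutant lists, and 5 in those of 3. No protein-coding gene midpoint lay within 500 kb for 15.3% of members and 7.78% of the regions of 11 to 17 fragments. This share was 7.52% of Y537S-private, 5.86% of K303R-private and 4.96% of all-list regions. Genes that did hold members were long: the 1198 protein-coding genes with a member in their span had a median length of 171 kb, against 24.5 kb over all 19122, where 6.27% of those 19122 genes held one. Longer genes offer more room for any region. Of these, 234 held at least 2 members and 80 at least 3.

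CCSER1 on chromosome 4 held the most members, 8 among 37 regions of both wild-type lists in its span of 1478 kb. RGS7, a regulator of G-protein signalling, held 6 of 28, the RNA-binding protein gene CELF2 6 of 37, the neural cell adhesion gene OPCML 6 of 37, and NAALADL2 6 of 49. Members made up a larger part of the regions in EPM2A, the gene of the glycogen phosphatase laforin (5 of 16), in MGAT4C (5 of 16) and in SRGAP1, a Slit-Robo GTPase-activating protein (5 of 17). These genes were named for their counts, after their values were seen.

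Chromosomes differed in the part of their wild-type regions that was private. The share was highest on chromosomes 4 (290 of 5568, 5.21%, 4.65 to 5.82) and 6 (315 of 6082, 5.18%, 4.65 to 5.76), followed by 13 (4.74%), 12 (4.59%), 5 (4.46%) and 18 (4.44%). It was lowest on chromosomes 22 (29 of 2245, 1.29%, 0.901 to 1.85), 19 (34 of 2164, 1.57%, 1.13 to 2.19), 16 (1.98%) and 17 (2.19%). Among regions of 11 to 17 mean fragments alone, the share was 14.4% on chromosome 4 and 15.2% on chromosome 6, and 5.08% on chromosome 22, 4.40% on 19, 5.18% on 16 and 6.35% on 17. For Y537S the private share was 2.87% on chromosome 6, 4.79% on 19 and 4.33% on 22, and for K303R it was 3.69%, 3.14% and 2.78%. The order of chromosomes in wild type was thus not that of the mutants.

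**Figure D4:**
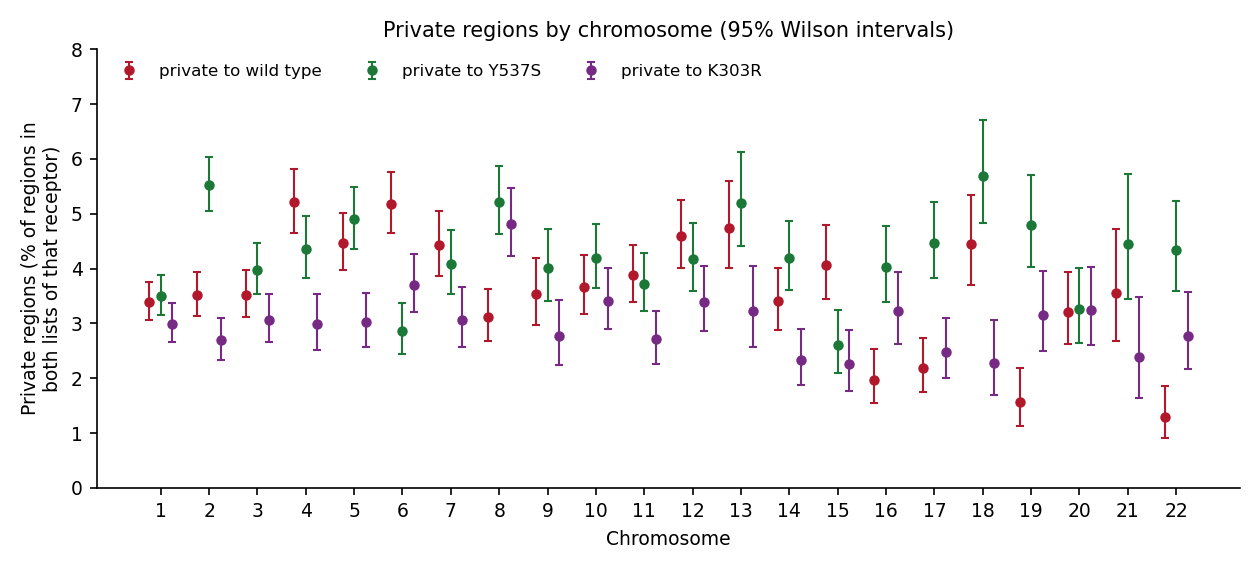
Private regions as a percentage of the regions in both lists of the same receptor (y axis), by chromosome (x axis), for wild type (red), Y537S (green) and K303R (purple), with Wilson intervals. Wild type is highest on chromosomes 4 and 6 (5.21% and 5.18%) and lowest on 22 and 19 (1.29% and 1.57%).

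The chromosomes with few members were those where mutant libraries were high at shared regions. On chromosome 19 the median log2 ratio to wild type at regions of all 6 lists, centred on all such regions, was 0.31 without and 0.34 with E2 for Y537S, and 0.39 and 0.39 for K303R. On chromosome 22 the values were 0.14, 0.09, 0.14 and 0.16. On chromosome 4 they were −0.09, −0.04, −0.17 and −0.20, and on chromosome 6 they were −0.34, −0.33, −0.08 and −0.11. Over the 22 chromosomes the member share and the mean of these 4 log2 values had Pearson's r = −0.85 and Spearman's rho = −0.90. This describes points that share the same 6 libraries and the same contrast as the rule. The member share and the number of protein-coding genes per Mb had r = −0.66 and rho = −0.55. The part of gene density in the chromosome differences was not tested.

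Shared regions near members were slightly lower in the mutants than shared regions at large. Within 100 kb of a member lay 8393 well-covered shared regions (in all 6 lists, with a mean of at least 50 fragments), while 904 members had none. Their median log2 ratio to wild type was −0.02 without and −0.04 with E2 for Y537S, and −0.06 and −0.04 for K303R, where all 32800 such regions had 0.07, 0.03, 0.01 and 0.03. Near the regions of 11 to 17 fragments the medians were 0.07, 0.04, 0.03 and 0.05. The shift was under 0.1 for each mutant library. These values come from the contrast that the rule used and support nothing beyond a description.

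Members were spread thinly, with a few local groups. They occupied 1839 of the 2684 windows of 1 Mb that held any region of both wild-type lists, 827 of them with a single member and 84 with 5 or more. The fullest was 164 to 165 Mb on chromosome 6, which holds no protein-coding gene in the table and had 10 members among 43 regions, with mean fragments of 10.5 to 59. Next, with 9 members each, were 145 to 146 Mb on chromosome 6, with EPM2A, FBXO30 and SHPRH (44 regions), 33 to 34 Mb on chromosome 10, with the co-receptor gene NRP1 (52 regions), and 82 to 83 Mb on chromosome 11, with PRCP, DDIAS and RAB30 among its genes (50 regions).

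In these windows the shared regions were also low in mutants. At 164 to 165 Mb on chromosome 6 the median log2 ratio over 15 well-covered shared regions was −0.43 and −0.45 for Y537S and −0.32 and −0.47 for K303R. At 145 to 146 Mb it was −0.59 and −0.49, and −0.18 and −0.25 (8 regions). In the NRP1 window it was −0.08 and −0.00 for Y537S and −0.80 and −0.57 for K303R (10 regions). In the chromosome 11 window it was −0.34 and −0.18, and −0.18 and −0.07 (7 regions). In each of these windows the medians of both mutants were below 0, though by no more than 0.08 for Y537S near NRP1. These values too come from the contrast that the rule used.

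Few members differed measurably between the wild-type libraries without and with E2. The ratio with to without E2, relative to the median shared region, had a median of 0.960 over members (middle range 0.786 to 1.18). It was 1.5-fold or more higher at 330 members (8.95%) and lower at 495 (13.4%). Over all 98786 regions of both wild-type lists these shares were 9.21% and 11.5%, and over the regions of 11 to 17 fragments 12.6% and 18.6%. The members' shares were close to those of all regions, whose counts are higher, and below those of the regions of 11 to 17 fragments. Scaled by the lowest local background instead, 400 were higher and 330 lower, so the direction of this split depends on the scaling. With the further demand that the 95% interval exclude 1, 21 members were higher and 48 lower, against 4.23% and 4.35% of all regions and 0.844% and 1.58% of regions of 11 to 17 fragments. With a stricter interval that leaves 0.1% outside, 2 were higher and 1 lower, where the share over all regions was 0.928% and 0.462%, and 0.0124% in either direction over the regions of 11 to 17 fragments. At the members' median of 13 fragments a 1.5-fold change is within counting error.

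**Figure D5:**
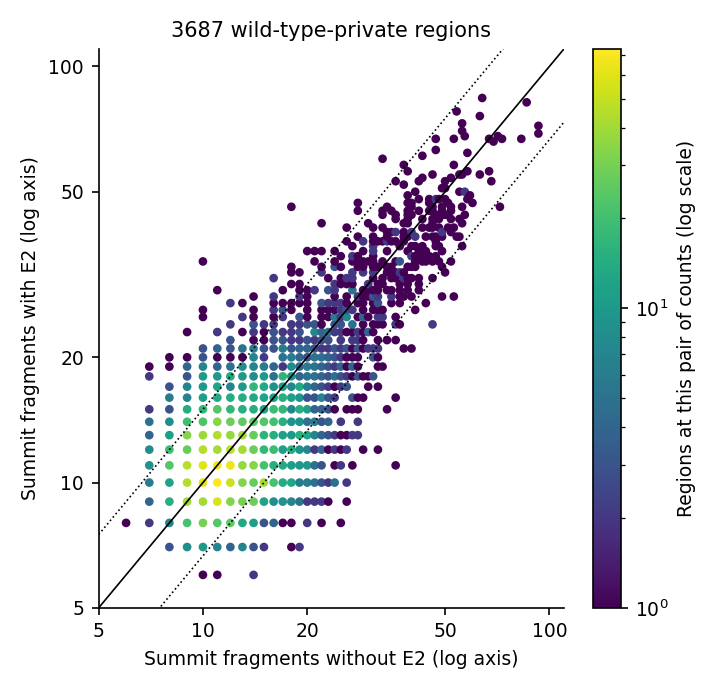
Summit fragments of the 3687 members in wild type without E2 (x axis) and with E2 (y axis), both on log axes, with color for the number of regions at each pair of counts, a solid line at equal counts and dotted lines at 1.5-fold. The medians are 13 fragments in both, and 330 lie on or above the upper and 495 on or below the lower dotted line.

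The largest ratio among the members was 3.40. This region lay 507301 bp from the cadherin gene CDH8 (chromosome 16, 62543494 to 62544003), and its counts were 10 without and 34 with hormone (interval of the ratio 1.64 to 7.72). Regions inside the ephrin receptor gene EPHA5 had 7 and 19 (2.71-fold, 1.09 to 7.64), and inside SHROOM3, an actin-binding regulator of epithelial cell shape, 10 and 26 (2.60-fold, 1.21 to 6.04). A region 202104 bp from LRP1B had 11 and 29 (2.64-fold, 1.28 to 5.85), and one 125225 bp from SLC44A3 had 7 and 18 (2.57-fold, 1.02 to 7.28). A region nearest to LOC124903401 on chromosome 14 had 18 and 46 fragments (2.56-fold). It was named after its values were seen, because it and the CDH8 region were the pair of higher members to pass the stricter interval.

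The lowest ratio was inside PPFIBP1, a liprin scaffold gene (chromosome 12, 27549079 to 27549543), with 36 fragments without and 11 with E2 (0.306, 0.140 to 0.614), the only lower member to pass the stricter interval. ADAMTS3, a procollagen-processing protease gene, held a region with 25 and 8 fragments (0.320, 0.125 to 0.732). A region 35350 bp from GRHL3, an epidermal transcription factor gene (chromosome 1, 24283735 to 24284198), had 26 and 9 (0.346, 0.143 to 0.762). One 250440 bp from COXFA4 had 22 and 8 (0.364, 0.140 to 0.848), and one inside the teneurin gene TENM2 had 19 and 7 (0.368, 0.131 to 0.915). Because a member needed a peak in both lists, regions that appeared or vanished with E2 could not be among them.

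Estrogen receptor targets had members nearby in 8 of 40 cases (20%) within 25 kb, where 10.2% of all 19122 protein-coding genes did. Other lists had shares as high, as given below. All 40 targets, and 246 of the 257 listed genes, had at least 1 region of both wild-type lists within 25 kb. So did 20 of 20 housekeeping, 19 of 20 hepatocyte, 18 of 18 neuronal and 17 of 20 immune genes, so this was not particular to targets. The progesterone receptor gene PGR held the member chromosome 11, 101095441 to 101095898, with 25 fragments without and 24 with E2 (0.960, 0.525 to 1.75), 1 of 2 members near it. A region 7103 bp from SIAH2, a ubiquitin ligase gene, had 68 and 53 (0.779, 0.534 to 1.13), and one 4513 bp from the cyclin gene CCND1 had 48 and 41 (0.854, 0.549 to 1.32). Despite these counts, the lower of their wild-type −log10 p values was 12.1 and 9.02, against 11.1 at PGR with fewer fragments. PDZK1, a scaffold protein gene, held one with 19 and 11 (0.579, 0.249 to 1.28), TPD52L1 one with 14 and 10, and RBBP8 one with 11 and 13. EGR3 had one with 16 and 12 at 9128 bp, and STC2 one with 15 and 11 at 15447 bp. At no target did the E2 interval leave out 1.

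Nuclear receptor and coregulator genes had members near 6 of 26 (23.1%), of which 5 are described here. NR3C1, the glucocorticoid receptor gene, held one with 36 fragments without and 40 with E2 (chromosome 5, 143343589 to 143343972). NR5A2, an orphan nuclear receptor gene, held one with 18 and 16, and PPARG, a regulator of adipocyte and luminal differentiation, one with 12 and 12. ESR1, the ERα gene itself, held one with 32 and 20 (chromosome 6, 152092102 to 152092421), and ESRRG had one with 15 and 10 at 19014 bp. The lower wild-type −log10 p was 5.34 at ESR1, against 11.8 at NR5A2 with fewer fragments. The counts of these 5 ranged from 10 to 40 fragments, and no E2 interval left out 1.

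The other lists were shorter than that of the targets and were at or below 4 genes each. Basal and mesenchymal genes had members near 4 of 20 (20%), the same share as the estrogen receptor targets. Among them were TP63 (11 and 15 fragments) and the keratin genes KRT5 and KRT6A, which share 1 region (17 and 10). Androgen receptor and apocrine genes had 3 of 28 (10.7%): ZBTB16 (8 and 9), HPGD (13 and 8) and MYBPC1 (7 and 10). Growth factor receptor and PI3K genes had 2 of 19 (10.5%): FGFR1 (8 and 9) and PIK3R1 (17 and 20). Of luminal identity genes, only RAB25 of 24 (4.17%) had a member (15 and 17), and of cell cycle genes only CDK6 of 22 (4.55%; 10 and 7 fragments). Housekeeping genes had 0 of 20.

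Lists for other cell types gave counts of the same order. Hepatocyte genes had members near 3 of 20 (15%, ALB, CPS1 and APOB), neuronal genes near 2 of 18 (11.1%, MAP2 and ELAVL4) and immune genes near 1 of 20 (5%, CD8A). In all, 31 of 257 listed genes (12.1%) had a member within 25 kb, at 30 regions. The E2 ratio of the region was above 1 for 15 of these genes, below 1 for 15 and equal to 1 for 1. No interval among them left out 1. Against the 10.2% of all protein-coding genes, the listed genes taken as a whole were near the background.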

How the data were processed

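Peak lists of 6 ERα ChIP-seq libraries were used. MACS2, Picard, Bowtie2, bedtools and SAMtools, with build hg38, are listed in the submitters' processing notes. Their versions, the control library, the read filters and the depth were not found in any label or file header. Each list was made by the authors from 1 library, without pooling. The deposited fold enrichment is a ratio of the summit to its local background, and the deposited −log10 p and −log10 q are the authors' own values.

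Summit fragments and background were solved from the fold (with 1 added to each term) and a Poisson p, which matched the deposited p within 0.01% for 100% of peaks in each list. The solver and the merging were tested on simulated data. Gene spans came from RefSeq GRCh38.p14. Sequence was read only in RefSeq's gene-start windows, and no exon annotation was used. Ratios have exact binomial intervals and shares have Wilson intervals, by SciPy 1.17.1.

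The members and the 11 gene lists were chosen with earlier results of these data known. All 264 listed genes were matched, 1 by an older symbol, and 257 lie on chromosomes 1 to 22. The motifs, the background limit and the ranking of genes by members were added after seeing the data. Named regions were the 12 strongest, the 5 highest and 5 lowest E2 ratios whose interval excluded 1, list genes within 25 kb, the fullest 1 Mb windows (with ties), the strongest at gene starts outside chromosome 8, and those at the edge of the rule. Merging, peak threshold, scaling, fold, gene set and window were varied.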

Additional observations from a re-analysis of the deposited data

How the results depend on the processing

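The number of members was 3356 when a mutant peak within 500 bp counted as present and 3825 when an overlap of at least 50% of the shorter peak was required. It was 2484 with a −log10 q of at least 5 in the wild-type lists, 3645 with that limit in all 6 lists, and 3907 with the X chromosome. Each is within 1.5 times 3687. The share of members inside a gene span was 41.7% with protein-coding genes only and 56.0% among members with a −log10 q of at least 5. The share within 1 kb of a gene end was 3.95% among those members and 4.92% without the members near a mutant peak, both chosen after seeing the data. Listed genes with a member numbered 61 with a window of 100 kb and 17 by the gene span alone, where 21.7% and 6.27% of all protein-coding genes had one. Members higher and lower with E2 numbered 49 and 87 at 2-fold, 2 and 1 with an interval that leaves 0.1% outside, and 150 and 263 among members with a −log10 q of at least 5, each a smaller or stricter selection. No paired analysis was possible because each group has 1 library. Total depth is unknown, and at a median of 13 fragments small changes cannot be seen.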

Other observations

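The X chromosome lies outside the rule but had a larger private share than any autosome. By the same steps, 220 of its 3359 regions of both wild-type lists (6.55%, Wilson interval 5.76 to 7.44) were in no mutant list, with a median of 13.5 mean fragments. At its 1934 regions of all 6 lists the median log2 ratio to wild type was −0.25 without and −0.23 with E2 for Y537S, and −0.10 and −0.14 for K303R.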
